A study of Homo sapiens with 8 samples.

Results

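The genes described here are STAB1, STAB2, MRC1, LYVE1, MMRN1, PROX1, GIMAP4, GIMAP6 and PIK3CG, 9 of the 61209 genes in the deposited table. They were picked by name as genes of scavenger receptors, lymphatic-type endothelium and the GIMAP family. Some of them rose in the FGF8+10 Pdgfra-low libraries, which was the reason for the choice. Their levels in those libraries are therefore given as a description and without a test. The cells came from the H1 human pluripotent stem cell line carrying a tdTomato reporter joined to MSX1 through a P2A peptide (genotype Msx1-P2A-tdTomato), in all 4 groups. Per the labels' protocols, the cells were taken through a primitive-streak medium and then a BMP4 and CHIR99021 medium to lateral plate mesoderm, made into pellets on day 4 and collected on day 8. The FGF8+10 groups had FGF8 and FGF10, each at 500 ng/mL, and the composition of the Mock medium was not given. The other listed protocol values were the same in all 4 groups. They include activin (50 ng/mL) and FGF2 (10 ng/mL), with CHIR99021 (6 uM) and BMP4 (40 ng/mL) on day 0. The day 1 medium had BMP4 (60 ng/mL) and CHIR99021 (1 uM). The Mock cells are thus also listed with an FGF. FGF2 stands beside the day 0 values, and nothing listed places it at the time of the FGF8 and FGF10 treatment. A transfer on day 5, with 3 days after it, was likewise shared. Each treatment was divided by PDGFRA level into Msx1+Pdgfra+ cells (called Pdgfra-positive here) and Msx1+Pdgfralow cells (Pdgfra-low), with 2 libraries in each of the 4 groups and 8 in all. The labels number the libraries as biological replicates and do not name separate differentiations; the p-values measure the spread among these libraries, which may be technical. The reporter line is not said to be 1 clone or several.

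Stabilin-1 (STAB1) and stabilin-2 (STAB2) are large scavenger receptors, and MRC1 is the mannose receptor. Together with LYVE1, a hyaluronan receptor, they are known from the endothelium of liver sinusoids, spleen and lymph nodes, where they take up waste from the blood and lymph, and STAB1, MRC1 and LYVE1 are also known from tissue macrophages. Lymphatic endothelium arises from venous endothelium under the transcription factor PROX1, which is also used in liver, lens and heart development, and it makes MMRN1, a secreted protein of the emilin family that platelets also store. GIMAP4 and GIMAP6 are GTPases known from lymphocytes and also seen in endothelium. PIK3CG is the catalytic subunit of PI 3-kinase gamma, which acts below G-protein-coupled receptors in leukocytes and some vascular cells.

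In the annotation used by the deposited table (GENCODE 42 on GRCh38), STAB1 lies on chromosome 3 (52495338-52524495, plus strand), and STAB2 on chromosome 12 (103587273-103766719, plus strand). MRC1 is on chromosome 10 (17809348-17911164, plus strand) and LYVE1 on chromosome 11 (10556966-10611689, minus strand). MMRN1 is on chromosome 4 (89879532-89954629, plus strand) and PROX1 on chromosome 1 (213983181-214041510, plus strand). Chromosome 7 holds PIK3CG (106865278-106908980, plus strand), GIMAP4 (150567369-150573953, plus strand) and GIMAP6 (150625375-150632648, minus strand). RefSeq promoter windows (GRCh38.p14, the 250 bases before each start) were given for 6 of the 9 genes, in 7 windows. 4 are shown, cut to bases outside annotated exons: those of the stabilins, a pair of related receptors whose levels ran in different directions here, and those of MMRN1 and GIMAP4, which had among the highest ratios of FGF8+10 over Mock. Capitals mark GGAAG or its reverse complement CTTCC, letters found in many sites for ETS transcription factors, the family of ERG and FLI1. Shorter or other forms of such sites were not searched. The windows are STAB1, chr3:52495088-52495337, STAB2, chr12:103587023-103587272, MMRN1, chr4:89879261-89879510, and GIMAP4, chr7:150567140-150567368, all on the plus strand.
STAB1: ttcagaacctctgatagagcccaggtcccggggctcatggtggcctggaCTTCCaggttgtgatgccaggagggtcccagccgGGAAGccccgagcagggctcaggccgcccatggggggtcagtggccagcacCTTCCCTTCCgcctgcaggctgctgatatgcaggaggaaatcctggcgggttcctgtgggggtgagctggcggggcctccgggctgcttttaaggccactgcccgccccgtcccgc
STAB2: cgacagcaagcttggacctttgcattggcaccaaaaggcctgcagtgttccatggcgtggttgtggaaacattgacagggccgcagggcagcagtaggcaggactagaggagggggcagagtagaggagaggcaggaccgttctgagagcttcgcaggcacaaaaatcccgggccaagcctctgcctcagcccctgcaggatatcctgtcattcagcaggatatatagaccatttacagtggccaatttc
MMRN1: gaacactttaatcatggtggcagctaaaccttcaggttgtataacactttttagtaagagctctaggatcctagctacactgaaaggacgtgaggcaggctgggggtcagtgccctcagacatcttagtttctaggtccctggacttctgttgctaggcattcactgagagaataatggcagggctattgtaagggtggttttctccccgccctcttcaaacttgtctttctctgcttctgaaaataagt
GIMAP4: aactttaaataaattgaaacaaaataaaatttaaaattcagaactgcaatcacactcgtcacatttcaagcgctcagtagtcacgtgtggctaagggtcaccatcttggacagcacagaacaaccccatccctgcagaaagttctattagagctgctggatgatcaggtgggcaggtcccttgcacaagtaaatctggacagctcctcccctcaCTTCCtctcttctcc
On both strands, GGAAG was found 4 times in the STAB1 window, 1 time in the GIMAP4 window, and not in the windows of STAB2 or of this MMRN1 start. The windows not shown lie partly or wholly in exons and held 3 matches for GIMAP6, 5 for PIK3CG and 2 for a second MMRN1 start. Of all 34941 RefSeq promoter windows of this length, 65.1% held the motif, so its presence is common. The motif of GATA factors, AGATAA, was found in none of the 7 windows and in 9.19% of all windows. The motif of SOX factors, ACAAT, was found 1 time, in the MMRN1 window shown, and in 24.7% of all windows. No motif match overlapped a match of another motif, and the letters say nothing of binding.

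The libraries held 47698561 to 64390444 assigned counts. The counting took each mate on its own, so 2 counts can come from 1 fragment, and a group without a count could still hold up to 6 counts (3 pairs). Levels are CPM, the counts relative to the library's total, scaled by TMM, edgeR's correction for library composition. PDGFRA itself, the gene of the sort, was at 714 and 285 CPM in the FGF8+10 Pdgfra-positive and Pdgfra-low groups and at 454 and 191 CPM in the matching Mock groups. The Pdgfra-low cells therefore still held PDGFRA RNA, and MSX1 was between 21.7 and 50.7 CPM in the group means. All 9 genes passed the filter on low counts (at least about 0.168 CPM in 2 libraries), but not in the same way. PROX1 passed in all 4 groups, STAB2 only in the 2 Mock groups, and LYVE1 and GIMAP6 only in the FGF8+10 Pdgfra-low group. STAB1, MRC1, MMRN1, GIMAP4 and PIK3CG passed in 3 groups.

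STAB1 was highest in the FGF8+10 Pdgfra-low libraries. It had 363 and 395 counts (6.84 and 6.73 CPM) there, against 74 and 55 counts (1.22 and 0.909 CPM) in the Mock Pdgfra-low libraries. In the Pdgfra-positive cells it had 16 and 18 counts (0.358 and 0.373 CPM) under Mock and 18 and 8 counts (0.266 and 0.118 CPM) under FGF8+10. No pair of groups overlapped, and in each treatment the Pdgfra-low libraries were the higher ones. The ratio of FGF8+10 Pdgfra-low over Mock Pdgfra-low was 6.39, and that over FGF8+10 Pdgfra-positive was 35.4. STAB1 shares 111 exon bases, 1.05% of its exons, with NT5DC2 on the other strand, and the counts do not use strand. NT5DC2 had 14110 and 14198 counts in the 2 libraries in which STAB1 had 18 and 8.

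STAB2 did not share this pattern. It had 24 and 22 counts in the Mock Pdgfra-positive libraries (0.537 and 0.456 CPM) and 30 and 25 in the Mock Pdgfra-low libraries (0.493 and 0.413 CPM). Under FGF8+10 it had 7 and 7 counts in Pdgfra-positive cells (0.104 and 0.103 CPM) and 4 and 18 in Pdgfra-low cells (0.0754 and 0.307 CPM). All 4 Mock libraries were above all 4 FGF8+10 libraries, the 2 Mock groups overlapped, and so did the 2 FGF8+10 groups. STAB2 overlaps exons of 2 antisense genes without a symbol by 87 and 160 bases, whose counts ran from 0 to 38.

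MRC1 had 351 and 444 counts (6.62 and 7.57 CPM) in the FGF8+10 Pdgfra-low libraries. It had 74 and 69 counts (1.10 and 1.02 CPM) in FGF8+10 Pdgfra-positive cells and 35 and 61 (0.784 and 1.27 CPM) in Mock Pdgfra-positive cells. In the Mock Pdgfra-low libraries it had 8 and 12 counts (0.131 and 0.198 CPM). The Pdgfra-positive groups overlapped, the Mock Pdgfra-low group lay below them and the FGF8+10 Pdgfra-low group above. Its level was 43.2 times as high in FGF8+10 as in Mock Pdgfra-low cells, and 6.74 times as high as in FGF8+10 Pdgfra-positive cells.

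LYVE1 was scarce everywhere. It had 30 and 21 counts (0.566 and 0.358 CPM) in the FGF8+10 Pdgfra-low libraries, 7 and 7 (0.104 and 0.103 CPM) in the FGF8+10 Pdgfra-positive libraries, and 0 counts in all 4 Mock libraries. Against the limit that 0 counts allow over a group, LYVE1 was at least 9.24-fold higher in FGF8+10 than in Mock Pdgfra-low cells. The ratio of Pdgfra-low over Pdgfra-positive cells under FGF8+10 was 4.42.

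**Figure D1:**
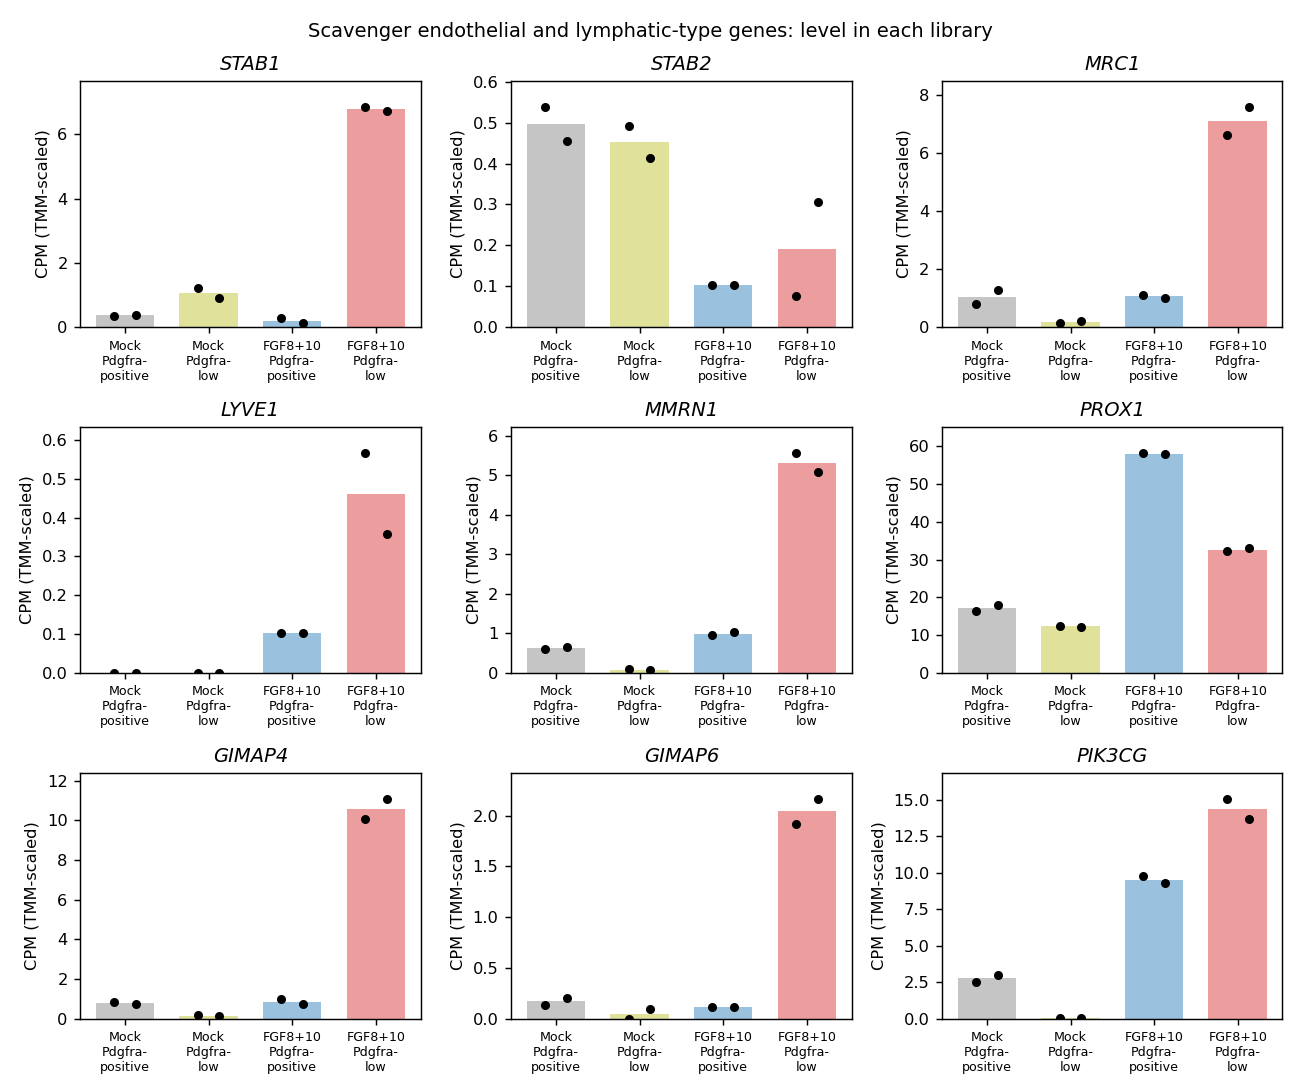
Level of each of the 9 genes in TMM-scaled CPM, with 1 black point per library and bars for the mean of the 2 libraries of a group; each panel has its own axis starting at 0. In this plot 7 of the panels have their highest bar in the FGF8+10 Pdgfra-low group, PROX1 has it in the FGF8+10 Pdgfra-positive group at 58.1 CPM, and STAB2 in the Mock Pdgfra-positive group at 0.497 CPM.

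MMRN1 followed MRC1 in the order of the groups. It had 295 and 298 counts (5.56 and 5.08 CPM) in the FGF8+10 Pdgfra-low libraries and 64 and 70 (0.947 and 1.03 CPM) in the FGF8+10 Pdgfra-positive libraries. The Mock libraries had 27 and 31 counts (0.605 and 0.643 CPM) in Pdgfra-positive and 6 and 4 (0.0985 and 0.0661 CPM) in Pdgfra-low cells. No groups overlapped, and the ratio of FGF8+10 over Mock in Pdgfra-low cells was 64.4.

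PROX1 was highest in the FGF8+10 Pdgfra-positive cells. The FGF8+10 libraries had 3931 and 3937 counts (58.2 and 57.9 CPM) in Pdgfra-positive and 1705 and 1946 (32.1 and 33.2 CPM) in Pdgfra-low cells. The Mock libraries had 735 and 864 counts (16.5 and 17.9 CPM) in Pdgfra-positive and 759 and 738 (12.5 and 12.2 CPM) in Pdgfra-low cells. The 4 groups were separate, both FGF8+10 groups lay above both Mock groups, and within each treatment the Pdgfra-positive cells were higher. Under FGF8+10 the level in Pdgfra-low cells was 0.563 of that in Pdgfra-positive cells. PROX1-AS1, on the other strand, shares 1.91% of the PROX1 exon bases and had 11 to 93 counts.

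GIMAP4 had 535 and 650 counts (10.1 and 11.1 CPM) in the FGF8+10 Pdgfra-low libraries. The Pdgfra-positive libraries had 68 and 49 counts (1.01 and 0.721 CPM) under FGF8+10 and 38 and 36 (0.851 and 0.747 CPM) under Mock, which overlap. The Mock Pdgfra-low libraries had the fewest, 10 and 8 counts (0.164 and 0.132 CPM). GIMAP4 was 71.5 times as high in FGF8+10 as in Mock Pdgfra-low cells and 12.3 times as high as in FGF8+10 Pdgfra-positive cells. GIMAP6, its neighbour on the chromosome, had 102 and 127 counts (1.92 and 2.16 CPM) in the FGF8+10 Pdgfra-low libraries. It had 8 and 8 counts in FGF8+10 Pdgfra-positive cells, 6 and 10 in Mock Pdgfra-positive cells and 0 and 6 in Mock Pdgfra-low cells. The 3 other groups were thus all at or near the counting floor for GIMAP6, and the ratio of FGF8+10 over Mock in Pdgfra-low cells was 41.5 with a 95% interval from 13.8 to 203.2 (exact binomial over pairs, counting error only).

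PIK3CG had 799 and 805 counts (15.1 and 13.7 CPM) in the FGF8+10 Pdgfra-low libraries and 661 and 631 (9.78 and 9.28 CPM) in the FGF8+10 Pdgfra-positive libraries. Under Mock it had 113 and 145 counts (2.53 and 3.01 CPM) in Pdgfra-positive cells and 4 and 2 counts (0.0657 and 0.0331 CPM) in Pdgfra-low cells. It was high in both FGF8+10 groups and near the counting floor in the Mock Pdgfra-low libraries. The ratio of FGF8+10 over Mock in Pdgfra-low cells was 290.5 (95% interval 99.0 to 1412, counting error only), while the ratio of Pdgfra-low over Pdgfra-positive cells under FGF8+10 was 1.51.

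Per kilobase of exon, which allows levels of different genes to be set side by side, the order in the FGF8+10 Pdgfra-low cells was GIMAP4 at 5.04 CPM per kb, PROX1 at 3.65, PIK3CG at 1.85, MRC1 at 1.37, MMRN1 at 0.966, STAB1 at 0.641, GIMAP6 at 0.522, LYVE1 at 0.131 and STAB2 at 0.0206. In the FGF8+10 Pdgfra-positive cells PROX1 led at 6.50 CPM per kb, followed by PIK3CG at 1.23, and every other gene of the 9 was at 0.412 or lower. In bulk RNA a lower level can mean fewer cells of a type or less RNA per cell, and these cannot be told apart.

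The comparisons without the FGF8+10 Pdgfra-low libraries were tested for the 9 genes. The test was edgeR's quasi-likelihood test, with Benjamini-Hochberg adjustment over all 22554 genes that passed the filter. In Pdgfra-positive cells, PROX1 and PIK3CG rose with FGF8+10 beyond the spread between replicates. The log2 fold change of FGF8+10 over Mock was 1.75 ± 0.07 (SE, adjusted p = 6.19e-27) for PROX1 and 1.78 ± 0.15 (adjusted p = 1.43e-14) for PIK3CG. STAB2 had a log2 fold change of -2.24 ± 0.70 (adjusted p = 0.00627) on 14 against 46 counts over the groups; it passed the filter only through the Mock groups, where it is high, so this p supports no fall. LYVE1 also passed (adjusted p = 0.0174) on 14 counts against 0, at least 1.60-fold higher. That call was lost without either Mock Pdgfra-positive library, with adjusted p = 0.0761 and 0.0839. The other genes did not pass: STAB1 had a log2 fold change of -0.92 ± 0.43 (adjusted p = 0.0692), MMRN1 of 0.66 ± 0.30 (adjusted p = 0.0643), MRC1 of 0.04 (adjusted p = 0.930), GIMAP4 of 0.11 (adjusted p = 0.758) and GIMAP6 of -0.53 (adjusted p = 0.534). STAB1 did pass without replicate 1 of the FGF8+10 Pdgfra-positive group, at -1.61 (adjusted p = 0.0164). In this comparison 25.8% of all tested genes were called higher and 25.1% lower, beside 3 of the 9 genes higher and 1 lower, so the count itself is no result about the 9 genes.

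Under Mock, the Pdgfra-low cells held less of most of these genes than the Pdgfra-positive cells, and more STAB1. The Mock Pdgfra-low libraries are a baseline of the rise for which the genes were picked, so the choice could favour genes low there. The p-values and the count of calls in this comparison therefore give no independent support. PIK3CG had the widest difference, with a log2 fold change of Pdgfra-low over Pdgfra-positive of -5.75 ± 0.34 (adjusted p = 8.87e-19). MMRN1 was lower at -2.89 ± 0.45 (adjusted p = 1.66e-06), MRC1 at -2.63 ± 0.37 (adjusted p = 1.75e-07) and GIMAP4 at -2.41 ± 0.37 (adjusted p = 1.20e-06). PROX1 was lower by a small and well-measured step, -0.48 ± 0.07 (adjusted p = 7.48e-07). STAB1 was higher at 1.53 ± 0.34 (adjusted p = 0.000355). STAB2 (adjusted p = 0.916) and GIMAP6 (-1.75, adjusted p = 0.0982) did not pass, and LYVE1 had no counts. GIMAP6 passed without replicate 2 of the Mock Pdgfra-low group, at adjusted p = 0.00593, when that group had no counts. Of all tested genes 13.4% were called higher and 12.4% lower, against 1 higher and 5 lower among the 9 genes.

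The comparisons with the FGF8+10 Pdgfra-low libraries are given without tests. FGF8+10 over Mock in Pdgfra-low cells had log2 fold changes of 8.12 for PIK3CG, 6.14 for GIMAP4, 5.98 for MMRN1, 5.41 for MRC1, 5.31 for GIMAP6, 2.67 for STAB1, 1.41 for PROX1 and -1.22 for STAB2. By the sign of these values, with LYVE1, 8 of the 9 genes were higher and 1 lower. Of all tested genes 27.9% were called higher and 27.7% lower in this comparison, shares that count passed tests and not signs, and nothing is read from the 9 genes' count. Pdgfra-low over Pdgfra-positive cells under FGF8+10 had log2 fold changes of 5.13 for STAB1, 4.09 for GIMAP6, 3.61 for GIMAP4, 2.75 for MRC1, 2.43 for MMRN1, 2.13 for LYVE1, 0.89 for STAB2, 0.59 for PIK3CG and -0.83 for PROX1. Here 21.7% of all tested genes were called higher and 19.6% lower. The STAB2 value turned to -0.44 without replicate 2 of the FGF8+10 Pdgfra-low group, which held 18 of its 22 counts. The choice of the genes fixed part of these directions, and the comparisons share libraries.

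**Figure D2:**
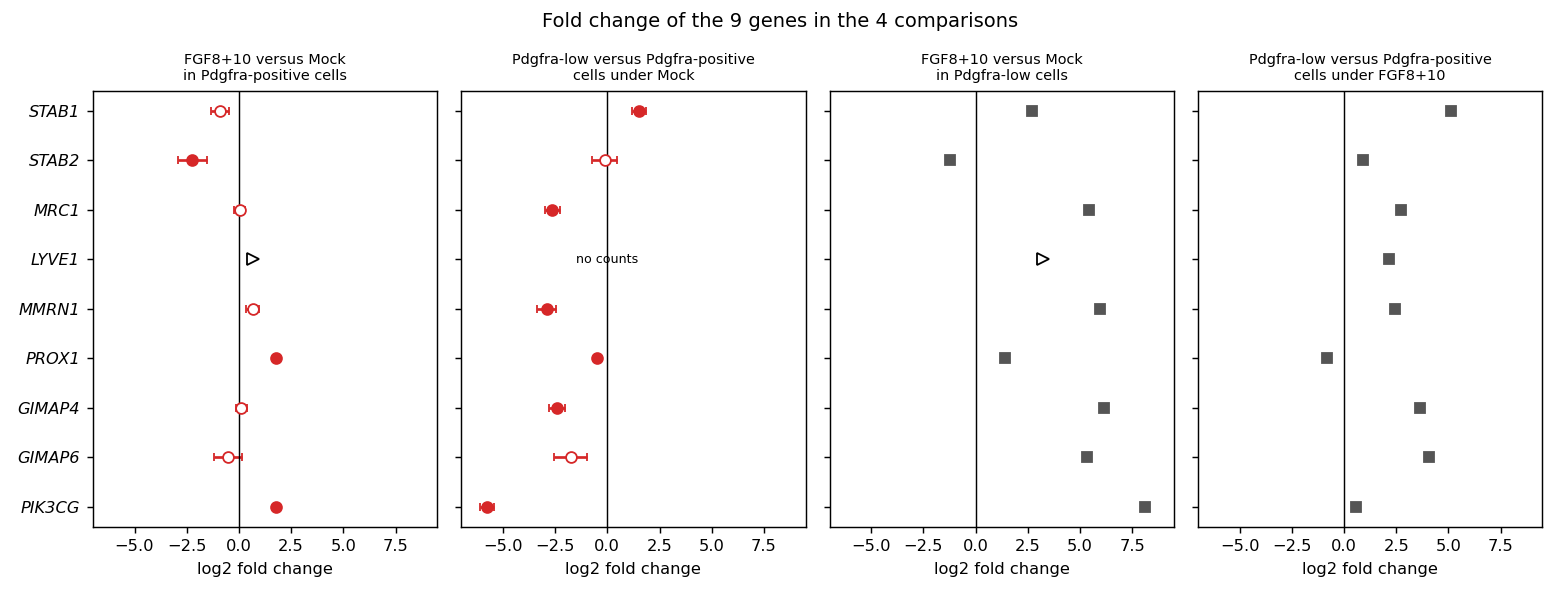
Log2 fold change of the 9 genes in the 4 comparisons. Red circles with SE bars are tested values, filled where the adjusted p is under 0.05; grey squares are values of the comparisons that share the libraries used to choose the genes and have no test; open triangles are lower bounds for LYVE1, at least 1.60-fold and at least 9.24-fold. MRC1, MMRN1, GIMAP4 and PIK3CG lie left of 0 in the Mock comparison and right of 0 in both untested comparisons.

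The name given to the 9 genes was checked against markers of the cell types it calls up. Of the 5 endothelial markers, PECAM1, CDH5, TIE1, ERG and VWF, each was highest in the FGF8+10 Pdgfra-low group. Other genes of the pan-endothelial list were not: FLI1 was at 184 CPM in the FGF8+10 Pdgfra-positive and 131 CPM in the FGF8+10 Pdgfra-low group, CLEC14A at 1.71 and 0.965 CPM, and TEK and ENG at 491 and 483 and at 15.0 and 14.1 CPM. ETV2 was highest in the Mock Pdgfra-positive group, at 2.49 CPM. PECAM1, an adhesion molecule of endothelial junctions, had 1029 and 1028 counts in the FGF8+10 Pdgfra-low libraries and 39 to 211 in the others. CDH5, the endothelial cadherin, had 1026 and 1183 counts there and 36 to 117 elsewhere. ERG, an ETS factor of endothelium, was at 47.7 CPM against 22.2, 15.4 and 6.20 CPM in the FGF8+10 Pdgfra-positive, Mock Pdgfra-positive and Mock Pdgfra-low groups. Their part in the result was not tested. VWF, a defining gene of mature endothelium, was low at 54 and 54 counts. Of the macrophage markers, CSF1R had 2 to 6 counts in any library, CD68 0 to 6, SPI1 0 to 15, CD14 1 to 19 and AIF1 39 to 168. PTPRC, the pan-leukocyte CD45, had 0 to 6 counts. Of the megakaryocyte markers, PF4 and GP9 had no counts in any library, and ITGA2B had 40 to 175.

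Across the 27 pan-endothelial genes of a list drawn up for this comparison, all tested, 24 rose and none fell with FGF8+10 in Pdgfra-low cells, with a median log2 fold change of 3.34 against -0.02 over all tested genes, of which 27.9% were called higher and 27.7% lower. The list was drawn up with earlier results of these data known. The summed level was 3146 to 3154 CPM in these libraries and 1583 to 1592 CPM in the Mock Pdgfra-low libraries, most of it KDR, the VEGF receptor that lateral plate mesoderm also expresses. The widest changes were in ROBO4, a receptor of endothelium (5.85 ± 0.65, adjusted p = 1.2e-10), and LMO2, a partner of TAL1 (5.01 ± 0.19, adjusted p = 9.7e-27). SOX7 came next (4.94 ± 0.23, adjusted p = 2.5e-23). ROBO4, CLDN5 and ECSCR passed the filter only through the FGF8+10 Pdgfra-low group, and SOX17 and ICAM2 only through the FGF8+10 groups. For these genes a call in a comparison with those groups supports no rise. VWF reached the filter's cutoff in both libraries only in the FGF8+10 Pdgfra-low group, and in a single library of each other group. In Pdgfra-positive cells 17 of the 27 rose and 2 fell, with a median of 0.89 (25.8% and 25.1% of all tested genes). Pdgfra-low cells under FGF8+10 were higher than Pdgfra-positive cells in 21 and lower in 2, with a median of 1.63 (21.7% and 19.6% of all tested genes). Under Mock the direction was the other way, 2 higher and 13 lower in Pdgfra-low cells (13.4% and 12.4% of all tested genes), which is also the direction of MRC1, MMRN1, GIMAP4 and PIK3CG there.

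Of the genes of lymphatic endothelium, 17 were tested of 18 listed. Of these 10 rose and 2 fell with FGF8+10 in Pdgfra-low cells, with a median log2 fold change of 1.00 (27.9% and 27.7% of all tested genes). In Pdgfra-positive cells 12 rose and 2 fell (25.8% and 25.1% of all tested genes). CCL21, a chemokine of lymphatic vessels, rose (4.10 ± 0.38, adjusted p = 5.0e-13), as did SOX18, which acts before PROX1 in lymphatic development and is also on the pan-endothelial list (3.95 ± 0.27, adjusted p = 1.6e-17), and GATA2 (3.86 ± 0.06, adjusted p = 5.4e-41). PDPN, podoplanin, a surface protein of lymphatic endothelium and of many mesenchymal cells, fell by 3.80 on the log2 scale, from 446 CPM to 32.0 CPM, and RELN fell by 5.60. FLT4, the VEGF-C receptor, rose from 2.86 to 12.7 CPM. Pdgfra-low cells under FGF8+10 had 8 of these genes higher and 2 lower than Pdgfra-positive cells (21.7% and 19.6% of all tested genes). Under Mock 6 were higher and 5 lower (13.4% and 12.4% of all tested genes). PROX2, the relative of PROX1, was at 0.771 to 1.80 CPM in the group means and passed only between the FGF8+10 groups, where it was lower in Pdgfra-low cells (-1.21 ± 0.31, adjusted p = 0.00137).

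Of 17 liver sinusoidal endothelial genes listed, 12 were tested. With FGF8+10 in Pdgfra-low cells 5 rose and 4 fell, with a median of 0.45 (27.9% and 27.7% of all tested genes). CLEC4M, a lectin of sinusoids, rose to 69 counts over the group from 3 (ratio 25.0, 95% interval 4.74 to 158.7, counting error only), ICAM1 rose by 2.32 ± 0.41 (adjusted p = 3.1e-06), and CRHBP rose from 3.40 to 16.0 CPM (2.24 ± 0.15, adjusted p = 1.5e-17). CLEC1B, another sinusoidal lectin, fell from 4.87 to 0.453 CPM, MAF, a transcription factor of sinusoidal endothelium, fell from 66.6 to 14.6 CPM, and RAMP3 fell from 31 counts to 0, at least 4.75-fold lower. CLEC4M passed the filter only through the FGF8+10 Pdgfra-low group and RAMP3 only through the Mock groups, where each was high. Their calls, and the counts that include them, therefore support no rise or fall. In the other comparisons 2 of the 12 were higher and 4 lower with FGF8+10 in Pdgfra-positive cells (25.8% and 25.1% of all tested genes). In Pdgfra-low cells 5 were higher and 3 lower under FGF8+10 (21.7% and 19.6%), and 4 higher and 2 lower under Mock (13.4% and 12.4%). With STAB2 highest under Mock, LYVE1 at no more than 30 counts, PROX1 highest in FGF8+10 Pdgfra-positive cells and PDPN highest in Mock cells, the data carry the name in part. STAB1 also went against the pan-endothelial list under Mock. It was higher in Pdgfra-low cells, where 2 of that list were higher and 13 lower.

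**Figure D3:**
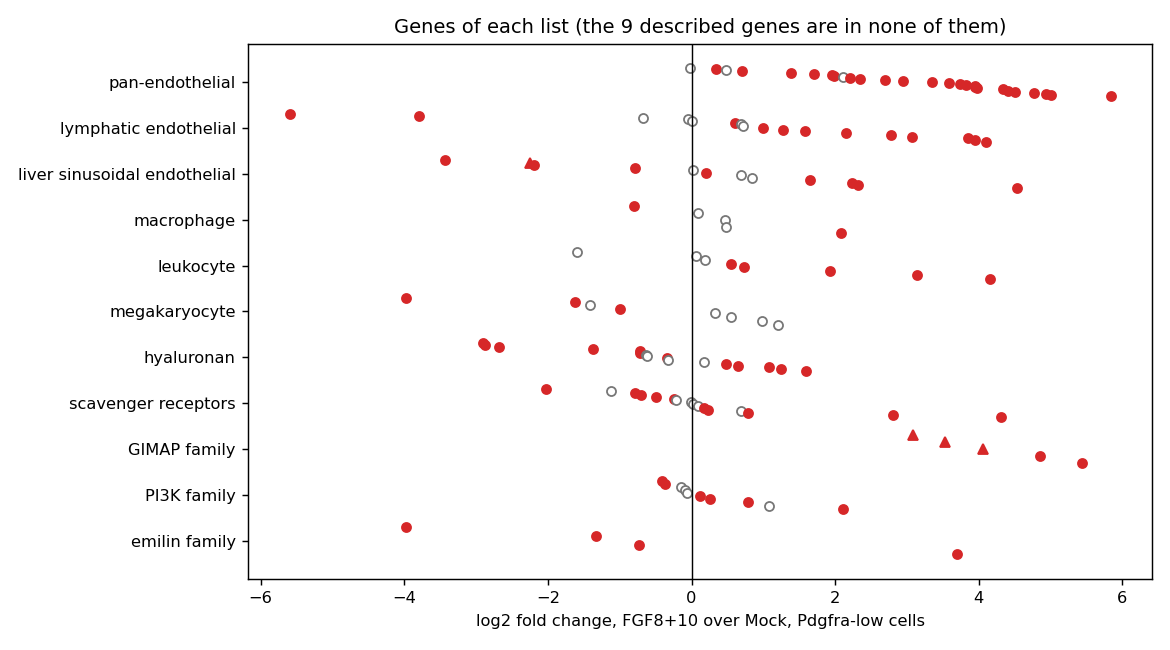
Log2 fold change of FGF8+10 over Mock in Pdgfra-low cells for the tested genes of 11 lists, with 1 point per gene, red where the adjusted p is under 0.05; triangles are bounds for genes without a count in a group. The pan-endothelial points lie right of 0 for 26 of 27 genes, the GIMAP points all lie right of 0, and the other lists spread over both sides. Of these GIMAP genes, GIMAP2, GIMAP5 and GIMAP7 passed the filter only through FGF8+10 groups.

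Of 22 macrophage genes, 5 were tested, with 1 higher (FCER1G, 2.08 ± 0.83, adjusted p = 0.030) and 1 lower (AIF1, -0.81 ± 0.27, adjusted p = 0.0094) with FGF8+10 in Pdgfra-low cells. Their summed level was 1.86 to 2.13 CPM in the FGF8+10 Pdgfra-low libraries, 2.62 to 3.38 CPM in the FGF8+10 Pdgfra-positive, 4.19 to 5.06 CPM in the Mock Pdgfra-positive and 2.31 to 2.48 CPM in the Mock Pdgfra-low libraries. AIF1 made up much of these sums, and FCER1G and CD14 had their highest group means, 0.321 and 0.255 CPM, in the FGF8+10 Pdgfra-low group. MRC1 and STAB1 are also known from macrophages, and the part of such cells in their levels was not tested. Of 16 leukocyte genes, 8 were tested and 5 rose, among them IKZF1 (68 counts over the group against 4, ratio 18.5, 95% interval 4.74 to 158.7), LAPTM5 (3.14 ± 0.43, adjusted p = 2.1e-08) and MYB (1.93 ± 0.66, adjusted p = 0.011), and in the other comparisons 4 rose and 2 fell with FGF8+10 in Pdgfra-positive cells, none was higher and 1 lower in Pdgfra-low cells under Mock, and 2 were higher and 2 lower under FGF8+10. Of 14 megakaryocyte genes, 8 were tested, none rose and 3 fell. Among these were ITGA2B (-1.62 ± 0.30, adjusted p = 8.3e-06) and GATA1 (1 count over the group against 21, ratio 0.0517, 95% interval 0 to 0.485). IKZF1 and MYB passed the filter only through the FGF8+10 groups, and GATA1 only through the Mock groups. Their calls in comparisons with those groups, and the counts that include them, therefore support no rise or fall. Over all tested genes, 27.9% were called higher and 27.7% lower with FGF8+10 in Pdgfra-low cells, and 25.8% and 25.1% in Pdgfra-positive cells. For Pdgfra-low over Pdgfra-positive cells these shares were 13.4% and 12.4% under Mock, and 21.7% and 19.6% under FGF8+10.

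The remaining GIMAP genes lie beside GIMAP4 and GIMAP6 on chromosome 7, in the order GIMAP8, GIMAP7, GIMAP4, GIMAP6, GIMAP2, GIMAP1 and GIMAP5. All 5 that were tested rose with FGF8+10 in Pdgfra-low cells, where 27.9% of all tested genes were called higher. GIMAP7 and GIMAP5 passed the filter only through the FGF8+10 Pdgfra-low group, and GIMAP2 only through the FGF8+10 groups. Their calls in comparisons with those groups, and a count that includes them, therefore support no rise. GIMAP8 and GIMAP1 reached the filter's cutoff in both libraries only in the FGF8+10 Pdgfra-low group. Single Pdgfra-positive libraries under FGF8+10 and Mock also reached it, at 0.235 and 0.249 CPM for GIMAP8 and 0.237 and 0.373 CPM for GIMAP1. GIMAP8 had 158 and 167 counts in the FGF8+10 Pdgfra-low libraries and 3 to 16 in the others (4.85 ± 0.47, adjusted p = 2.2e-12). GIMAP1 had 55 and 75 counts against 2 and 1 in Mock Pdgfra-low cells (ratio 47.1, 95% interval 9.39 to 297.8), and GIMAP5, GIMAP7 and GIMAP2 had 92, 64 and 47 counts over the group against 0, at least 16.7-fold, 11.6-fold and 8.51-fold higher. GIMAP2 stood apart, with 22 and 28 counts in the FGF8+10 Pdgfra-positive libraries against 18 and 29 in the Pdgfra-low ones. GIMAP2 and GIMAP5 also rose in Pdgfra-positive cells (adjusted p = 0.0015 and 0.0018), the other 3 did not pass there, and 4 of the 5, all but GIMAP2, were higher in Pdgfra-low than in Pdgfra-positive cells under FGF8+10. Under Mock GIMAP1 was lower in Pdgfra-low cells and the other 4 did not pass. Of all tested genes 25.8% were called higher with FGF8+10 in Pdgfra-positive cells. In Pdgfra-low cells 21.7% were called higher under FGF8+10 and 12.4% lower under Mock. GIMAP1 and GIMAP5 share exon bases with a read-through gene, 8.98% and 31.0% of their exons, so part of their reads may not have been counted.

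**Figure D4:**
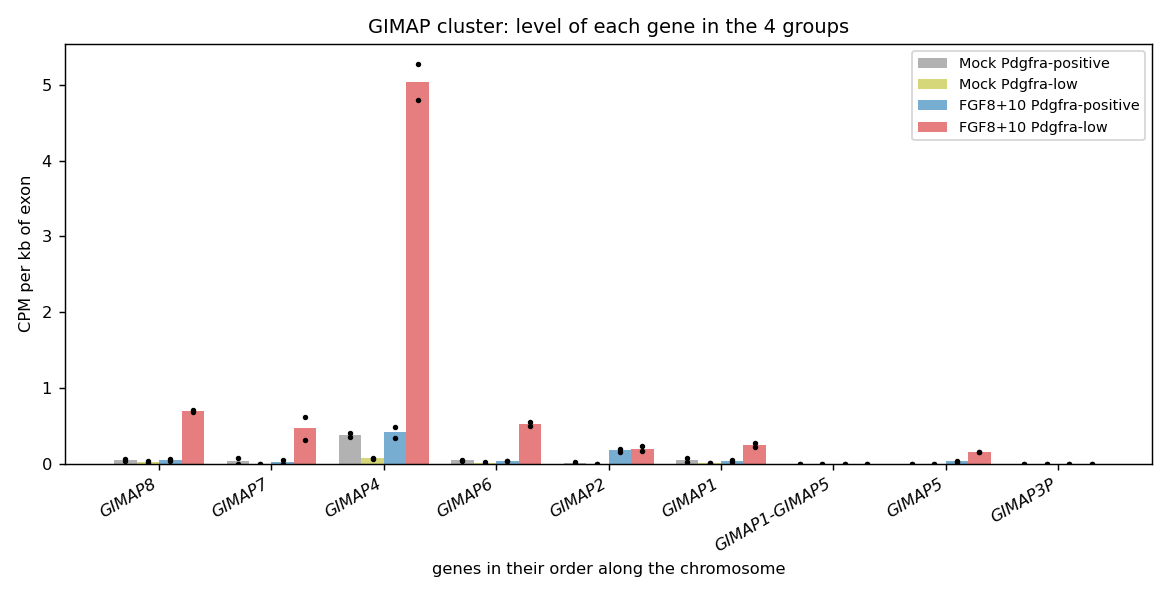
Level per kilobase of exon (CPM per kb) of the genes of the GIMAP cluster in their order along the chromosome, with bars for the mean of 2 libraries and 1 point per library. GIMAP4 reaches 5.04 CPM per kb in the FGF8+10 Pdgfra-low group, every other gene stays under 1, and GIMAP2 has similar bars in both FGF8+10 groups.

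With FGF8+10 the tested relatives of PIK3CG moved less. That contrast was favoured in advance, because PIK3CG was in a set picked for rises in the FGF8+10 Pdgfra-low libraries. Of 13 PI 3-kinase genes, 10 were tested. With FGF8+10 in Pdgfra-low cells 4 rose and 2 fell (27.9% and 27.7% of all tested genes), with a median log2 fold change of 0.02. The regulatory subunit PIK3R3 rose from 9.92 to 43.0 CPM (2.12 ± 0.07, adjusted p = 6.0e-28), and the catalytic subunit PIK3CA rose by 0.79 ± 0.05 (adjusted p = 7.4e-19). PIK3R1 (0.26) and PIK3C2A (0.11) passed with small changes, and PIK3CD, the delta catalytic subunit of leukocytes, fell from 4.03 to 3.02 CPM, as PIK3C2B did (-0.37). PIK3CB, PIK3R2, PIK3R4 and PIK3C3 did not pass, at -0.14, 1.07, -0.09 and -0.07. In Pdgfra-positive cells 4 rose and 3 fell (25.8% and 25.1% of all tested genes). In Pdgfra-low cells 1 was higher and 2 lower under Mock (13.4% and 12.4%), and 6 were higher and 3 lower under FGF8+10 (21.7% and 19.6%). PIK3R6, a regulatory partner of PIK3CG, had no counts in any library, and PIK3R5, the other one, had 0 to 10.

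Among the emilin relatives of MMRN1, only MMRN2, a protein of the endothelial surface, rose, from 1.46 to 19.0 CPM with FGF8+10 in Pdgfra-low cells (3.70 ± 0.16, adjusted p = 6.8e-25). EMILIN2 fell from 204 to 12.9 CPM, EMILIN3 to 0.394 of its Mock level and EMILIN1 from 186 to 112 CPM. In Pdgfra-positive cells the 3 emilins fell and MMRN2 did not pass. Pdgfra-low over Pdgfra-positive cells had 2 higher and 2 lower under FGF8+10 (21.7% and 19.6% of all tested genes), and 1 higher and 3 lower under Mock (13.4% and 12.4%). With FGF8+10, 27.9% of all tested genes were called higher and 27.7% lower in Pdgfra-low cells, and 25.8% and 25.1% in Pdgfra-positive cells.

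Of 16 other scavenger receptors tested of 21 listed, 5 rose and 5 fell with FGF8+10 in Pdgfra-low cells, with a median log2 fold change of 0.01. These shares are near those of all tested genes, 27.9% called higher and 27.7% lower. CD163L1 (4.31 ± 0.43, adjusted p = 6.7e-12), SCARF1 (2.80 ± 0.11, adjusted p = 1.4e-26) and SSC5D (0.78 ± 0.07, adjusted p = 2.2e-13) rose. COLEC12, a scavenger collectin, fell from 787 to 194 CPM, LRP1 from 1142 to 660 CPM and MRC2, the relative of MRC1 that takes up collagen in mesenchymal cells, from 1306 to 803 CPM. In Pdgfra-positive cells 7 rose and 6 fell, and in Pdgfra-low cells 3 were higher and 8 lower under FGF8+10, and 3 higher and 9 lower under Mock. Hyaluronan genes, which include the enzymes and other receptors for the ligand of LYVE1 and STAB2, gave 5 higher and 7 lower of 16 tested of 18 listed, with a median of -0.48. HMMR (1.59 ± 0.06, adjusted p = 4.9e-27), HAS2, a hyaluronan synthase (1.25 ± 0.03, adjusted p = 1.5e-36), and CD44, the main hyaluronan receptor (1.08 ± 0.09, adjusted p = 2.0e-14), rose. VCAN, which binds hyaluronan in the matrix, fell from 4992 to 668 CPM, TNFAIP6 from 0.668 to 0.0870 CPM and CEMIP, which breaks hyaluronan down, from 44.5 to 6.92 CPM. TNFAIP6 passed the filter only through the Mock groups, where it was high, so its call supports no fall. In Pdgfra-positive cells 3 of these rose and 6 fell. In Pdgfra-low cells 6 were higher and 3 lower under FGF8+10, and 4 higher and 2 lower under Mock. Of all tested genes, 25.8% were called higher and 25.1% lower with FGF8+10 in Pdgfra-positive cells. For Pdgfra-low over Pdgfra-positive cells these shares were 21.7% and 19.6% under FGF8+10, and 13.4% and 12.4% under Mock.

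The genes nearest in pattern over the 8 libraries were found by the distance between centred log2 CPM profiles. This was done for the 7 of the 9 genes with a group mean of at least 1 CPM. The 9 genes themselves were left out as possible neighbours. SHE, an adaptor protein, and NTS, the neuropeptide neurotensin, came up for MRC1, MMRN1 and GIMAP4, with NTS nearest to MMRN1 at a distance of 0.537. NTS was at 2.18, 11.5, 1.11 and 0.173 CPM in the FGF8+10 Pdgfra-positive, FGF8+10 Pdgfra-low, Mock Pdgfra-positive and Mock Pdgfra-low groups. The remaining place was SOX7 for MMRN1 (0.963) and PPARGC1A for MRC1 (1.37) and GIMAP4 (1.70). GIMAP6 lay nearest to CD34, the sialomucin of endothelial and blood progenitors (1.73), then to SHE (2.12) and ESAM, an endothelial adhesion molecule (2.12). STAB1 lay nearest to DIPK2B (1.54), which had no counts in Pdgfra-positive cells, GDF15 (1.72) and TAL1, a factor of blood and endothelial progenitors (1.83). PROX1 had the closest neighbours, RENBP (0.217), VIM, the intermediate filament vimentin (0.347), and GEM (0.355), with VIM at 2411 and 1571 CPM in the FGF8+10 groups and 849 and 643 CPM in the Mock groups, Pdgfra-positive first. PIK3CG had ALDH1A2, the retinoic acid enzyme (1.99), LGI1 (2.22) and ELOVL3 (2.22), and ALDH1A2 was at 79.0 and 45.5 CPM in the FGF8+10 groups and 7.73 and 0.437 CPM in the Mock groups in the same order. Genes of the pan-endothelial list were among the nearest of STAB1 (TAL1), MMRN1 (SOX7) and GIMAP6 (CD34 and ESAM), and not of MRC1, GIMAP4, PROX1 or PIK3CG. The profiles include the libraries used to choose the genes.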

How the data were processed

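Raw counts per gene in 8 libraries were used as the authors deposited them: whole-number read counts, made with featureCounts 2.0.3 on the GENCODE 42 annotation, per the file headers, with both mates of a pair counted and no strand used. HISAT2 2.1.0, FastQC 0.11.8 and the build GRCh38 are named in the submitters' processing notes. The exon length column, in bases, is the deposited one and gave CPM per kb. All 9 genes and the lists were chosen with earlier results of these data known. From the counts, edgeR 4.0.16 (limma 3.58.1, R 4.3.3) fitted 4 group means over all 8 libraries with a robust quasi-likelihood fit, TMM factors (0.936 to 1.07) and filterByExpr (minimum count 10), keeping 22554 of 61209 genes, 39416 of which had a count. The 4 residual degrees of freedom gave a common biological coefficient of variation of 4.06%. Calls are at a Benjamini-Hochberg adjusted p under 0.05 over all genes kept. A call supports no difference where a gene passed the filter only through the group in which it was high. On simulated data for FGF8+10 versus Mock in Pdgfra-positive cells (22554 genes), 75% of 2-fold and 85% of 4-fold changes were recovered, and 8.57% of calls were false. The simulation changed only 100 genes by each fold. In the data 11469 genes were called in that comparison, so the simulated share of false calls does not carry over to it.

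The 9 genes were tested only without the FGF8+10 Pdgfra-low libraries, in which a rise was the reason for the choice. The Mock Pdgfra-low libraries, a baseline of that rise, stayed in the Mock comparison. Bounds use a floor of 6 counts over the group, and intervals are exact binomial (95%). Named list genes are up to 3 highest and 3 lowest among those called with FGF8+10 in Pdgfra-low cells, plus cell type markers and all tested GIMAP, PI 3-kinase and emilin relatives. The values of 1 such list gene are not reported here. KDR, FLT4, PDGFRA, MSX1, PIK3R5 and PIK3R6 were named as markers or partners, and FLI1, TEK, ENG, CLEC14A and ETV2 after their values were seen. Nearest patterns are the 3 genes outside the 9 with the smallest Euclidean distance (prior count 2). No correlation is given, since the libraries fall into 4 clusters. Replicates of a group differed by more than counting noise (mean chi-square per gene 1.82 to 2.00 over pairs). DESeq2 1.42.0 and the settings in the closing section were alternatives. No RefSeq promoter was listed for MRC1, LYVE1 and PROX1.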

Additional observations from a re-analysis of the deposited data

Results flagged for a closer look

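STAB1 and GIMAP6 stood out because every FGF8+10 library moved one way in Pdgfra-low cells and the opposite way in Pdgfra-positive cells against its Mock group. For STAB1 the log2 fold change of FGF8+10 over Mock was 3.60 higher in Pdgfra-low than in Pdgfra-positive cells, from 2.67 and -0.92. For GIMAP6 the difference was 5.84, from 5.31 and -0.53, and it rests on 6 to 16 counts in each of the 3 other groups. The lower values in Pdgfra-positive cells did not pass (adjusted p = 0.0692 for STAB1, and 0.534 for GIMAP6 on 16 against 16 counts). Neither difference was tested, because a rise in the FGF8+10 Pdgfra-low libraries was the reason for choosing the genes.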

How the results depend on the processing

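The calls of the 9 genes in the 2 tested comparisons were recomputed with other scalings, filters, tests, sample sets and counting units, and without each library. Requiring at least 1 CPM in at least 2 libraries left 7 of the 9 genes, without STAB2 and LYVE1, and the members called with FGF8+10 in Pdgfra-positive cells went from 4 to 2. Library totals in place of TMM moved the median of all genes to 0.161 in that comparison and to 0.146 in Pdgfra-low cells, with 67.2% and 63.5% of calls higher in place of 50.7% and 50.2%, and MMRN1 then passed in Pdgfra-positive cells (0.83, adjusted p = 0.0170). Nothing changed direction among the tested genes that passed. MRC1 and GIMAP4, which did not pass with FGF8+10 in Pdgfra-positive cells, ranged from -0.26 to 0.43 and from -0.13 to 0.35. Among the untested values, the STAB2 log2 fold change with FGF8+10 in Pdgfra-low cells was -2.55 without FGF8+10 Pdgfra-low replicate 2, and the GIMAP6 value there was 9.87 without Mock Pdgfra-low replicate 2, when Mock had no counts. Same-numbered libraries showed no shared deviation: their deviations correlated by -0.0230 to 0.0233 over 15131 genes. This cannot tell whether they came from 1 culture, since a shared culture need not leave a shared deviation, and the labels do not say. With the replicate number as a block, 11366, 5803, 12451 and 9232 genes were called in the 4 comparisons (FGF8+10 in Pdgfra-positive cells, Pdgfra-low under Mock, FGF8+10 in Pdgfra-low cells, Pdgfra-low under FGF8+10), against 11469, 5824, 12558 and 9335, and the block changed no call of the 9 genes. DESeq2 called 10718, 5156, 11720 and 8533, and gave no adjusted p for 2 of the 9 genes in Pdgfra-low against Pdgfra-positive cells under Mock. STAB2, LYVE1 and GIMAP6 are limited by depth, with no more than 30 counts in most libraries.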
